A study of Rattus norvegicus with 8 samples.

Results

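The enamel organ genes described here were 9 that serve the synthesis, binding, breakdown and reception of retinoic acid: Aldh1a1, Aldh1a2, Aldh1a3, Crabp1, Crabp2, Cyp26a1, Cyp26b1, Rara and Rarb. They were chosen by symbol, ignoring case and the ending added to predicted or mapped gene models, and were read by 10 probes of the 22523 on the array. Rarb had 2 probes. The set was chosen with the stage comparison in view, so the difference between the stages is given for these genes as a description, without a test.

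Retinoic acid is the active form of vitamin A. Cells make it from retinal with the dehydrogenases of the Aldh1a family, carry it on the small binding proteins Crabp1 and Crabp2, and oxidise it to inactive forms with the cytochrome P450 enzymes of the Cyp26 family. In the nucleus it binds the receptors of the Rar family, which act in pairs with Rxr receptors on response elements in DNA, and Cyp26a1 and Rarb are themselves known targets of the signal. Vitamin A has long been known to be needed for normal enamel, and deficient animals have disturbed ameloblasts, the epithelial cells that make it.

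Each of 4 Wistar rats (Wistar Hannover in the study's methods), male and 4 weeks old, gave a secretory-stage and a maturation-stage sample of incisor enamel organ. In the secretory stage ameloblasts lay down the enamel matrix, and in the maturation stage the matrix is removed and mineral replaces it. No animal was treated or genetically altered. The organ was peeled from lyophilised mandibles after the overlying bone had been taken away, so each sample is a layer of several cell types and not isolated ameloblasts.

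Every sample went to its own array of the RatRef-12 BeadChip, an Illumina chip that holds several arrays and reads each transcript with many beads carrying one probe, giving 4 arrays per stage. Which samples shared a chip is not given in the sources used here. Summed bead signals ran from 13355073 to 16122665 on maturation-stage arrays and from 11881691 to 12046793 on secretory-stage arrays, and the number of arrays limits the precision. Within a rat the maturation-stage sum was 1.11 to 1.36 times the secretory-stage sum, and ratios of deposited signals, which are not normalized, include this difference in scale. A probe was taken as detected on an array at a detection p below 0.05 against the negative-control beads. Normalized signals are log2 values after background correction and quantile normalization, and a log2 fold change is the maturation-stage mean minus the secretory-stage mean. The source label of 3 maturation-stage arrays names the other stage, against their titles, descriptions and tissue labels, and the normalized signals of 8 of 8 arrays lay closer to the stage given by the title, by mean correlation.

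The maturation-stage genes of enamel epithelium that served as markers were higher in the maturation stage on 6 of 6 probes, with a mean normalized signal of 10.90 to 11.14 against 5.66 to 6.06. Of the secretory-stage markers, Enam and Mmp20 were lower and Amelx and Ambn were not called, with a list mean of 9.72 to 11.34 against 12.87 to 12.98. In the maturation stage Enam was at 9.08 and 8.22 in rats 1 and 4 and at 5.17 and 5.53 in rats 2 and 3, and Mmp20 was at 6.96 and 6.30 against 5.92 and 5.55. These arrays of rats 1 and 4 were left out together as an alternative chosen after the data were seen. In whole tissue, fewer cells of a type and less RNA per cell cannot be told apart.

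The fold threshold of 1.8 is the one used in the study. Of the 10 probes, 4 were lower in the maturation stage by at least 1.8-fold with no overlap of the stages, and 0 were higher. They were those of Aldh1a1, Crabp1 and Cyp26a1 and 1 of the Rarb probes. Over all probes, 3.15% were lower and 4.58% higher by that rule. Because the genes were chosen with this contrast known, the count is a description and nothing is read from its distance to those shares. In the order of all 22523 probes from the largest fall, Cyp26a1 stood at place 5, Crabp1 at 13 and Aldh1a1 at 14, and without background correction at 19, 5 and 22.

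**Figure D1:**
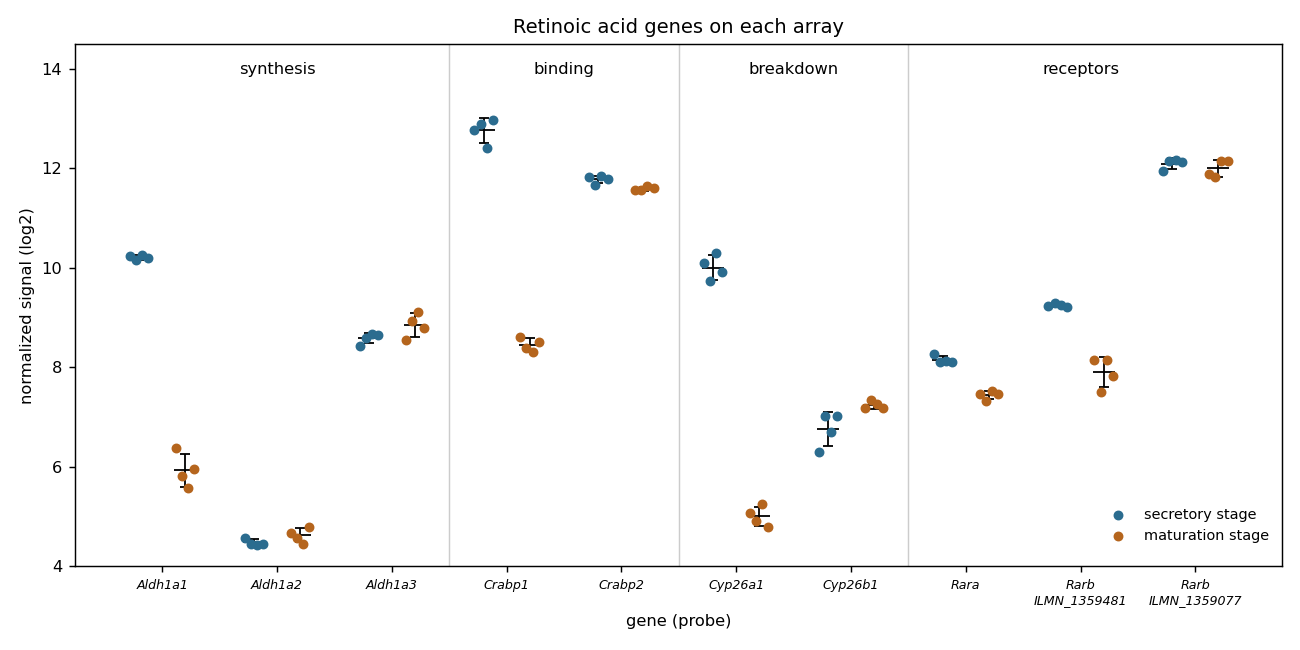
Normalized signal (log2) of the 10 probes on each of the 8 arrays, in the order of the steps of the pathway, with secretory-stage arrays in blue and maturation-stage arrays in brown (points run from rat 1 to rat 4). Bars are the mean and SD of 4 rats, levels can be compared within a probe only, and the stages lie far apart for Aldh1a1, Crabp1 and Cyp26a1, with differences of -4.28, -4.31 and -5.00.

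The 3 dehydrogenases did not move together. Aldh1a1, which oxidises retinal to retinoic acid and acts on other aldehydes too, had normalized signals of 10.23, 10.15, 10.26 and 10.20 in the secretory stage of rats 1 to 4 and of 6.38, 5.81, 5.58 and 5.96 in the maturation stage. Each secretory-stage array was above every maturation-stage array, and the gene was detected on all 8. This gave a log2 fold change of -4.28 (SE 0.145), or 19.4-fold. Within a rat the difference lay between -4.68 in rat 3 and -3.85 in rat 1, whose maturation-stage sample was the highest of its stage. Its next highest was rat 4, these being the rats with more Enam, and without both arrays the log2 fold change was -4.49. The part of secretory-stage cells in these values was not tested.

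The secretory-stage values of Aldh1a1 were close to each other, with an SD of 0.0462 against 0.337 in the maturation stage. On the deposited signals, before any correction, the maturation-stage value was 0.125 to 0.190 of that in the same rat's secretory stage. Without background correction the log2 fold change was -2.92.

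Aldh1a3, the dehydrogenase known from nasal and eye development, was detected on all 8 arrays. Its normalized signal was 8.44, 8.60, 8.67 and 8.66 in the secretory stage and 8.56, 8.94, 9.11 and 8.80 in the maturation stage. The stages overlapped, since maturation-stage rat 1 lay below 3 of the secretory-stage arrays. The difference within a rat was positive in 4 of 4, from 0.13 to 0.44, and the log2 fold change was 0.26 (SE 0.113). It was 0.62 with median scaling in place of quantile normalization. The deposited maturation-stage signal was 1.58 to 1.65 times that of the secretory stage in the same rat, beside the 1.11 to 1.36 of the summed signals.

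Aldh1a2, the main source of retinoic acid in the mesoderm of embryos, was detected on none of the 8 arrays. Its normalized signals were 4.58, 4.46, 4.44 and 4.46 in the secretory stage and 4.68, 4.57, 4.46 and 4.79 in the maturation stage, so no fold is given. Its deposited signals of 98.5 to 122 had detection p-values from 0.124 to 0.748. A transcript below the detection limit of the probe was not detectable by this array, which does not show that it is absent.

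The binding proteins also differed from each other. Crabp1, a cytosolic carrier of retinoic acid, had normalized signals of 12.78, 12.89, 12.41 and 12.97 in the secretory stage and of 8.62, 8.38, 8.30 and 8.51 in the maturation stage. No array of one stage reached the other, and the lowest secretory-stage value, in rat 3, was still above every maturation-stage one. Its log2 fold change was -4.31 (SE 0.124), or 19.9-fold, with rat by rat differences from -4.51 to -4.11. In the maturation stage its values were also highest in rats 1 and 4, and without both arrays the change was -4.46.

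Crabp1 remained well above background in the maturation stage, with deposited signals of 418 to 610 against 4762 to 7299 in the secretory stage. Its change depended less on the correction of the background than that of Aldh1a1, at -3.96 without it.

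Crabp2, which hands retinoic acid to its nuclear receptors, had normalized signals of 11.82, 11.67, 11.84 and 11.79 in the secretory stage and 11.56, 11.56, 11.64 and 11.61 in the maturation stage. The stages did not overlap, and the log2 fold change was -0.18 (SE 0.0585). Its sign turned to 0.04 with median scaling. The deposited maturation-stage signal was 1.02 to 1.24 times that of the secretory stage in the same rat, beside the 1.11 to 1.36 of the summed signals. As the sign depends on the scaling, no direction is given for Crabp2.

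The enzymes of breakdown differed too. Cyp26a1, which oxidises retinoic acid, had normalized signals of 10.09, 9.73, 10.30 and 9.91 in the secretory stage of rats 1 to 4 and of 5.07, 4.91, 5.25 and 4.80 in the maturation stage. Every secretory-stage array was above every maturation-stage array, and the probe was detected on 4 secretory-stage and 2 maturation-stage arrays. Its log2 fold change was -5.00 (SE 0.136), or 32.0-fold, and the difference within a rat ran from -5.11 to -4.82. Without the maturation-stage arrays of rats 1 and 4 the change was -4.86.

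The rats kept some of their order in Cyp26a1, rat 3 having the highest value in both stages. Without background correction the log2 fold change was -3.02. On the deposited signals of 123 to 136 against 810 to 1157 the ratio within a rat was 0.112 to 0.154.

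Cyp26b1, the second enzyme that clears retinoic acid, had normalized signals of 6.30, 7.02, 6.71 and 7.02 in the secretory stage and of 7.19, 7.34, 7.26 and 7.19 in the maturation stage. All maturation-stage arrays were above all secretory-stage ones, by a small margin. At 0.49 (SE 0.147), the log2 fold change was below the 1.8-fold threshold. Rat 1 had the lowest secretory-stage value and the largest difference, 0.89, while in rat 4 it was 0.17. The change ran from 0.25 without background correction to 0.80 with median scaling. On the deposited signals the maturation-stage value was 1.41 to 1.92 times the secretory-stage one in the same rat.

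**Figure D2:**
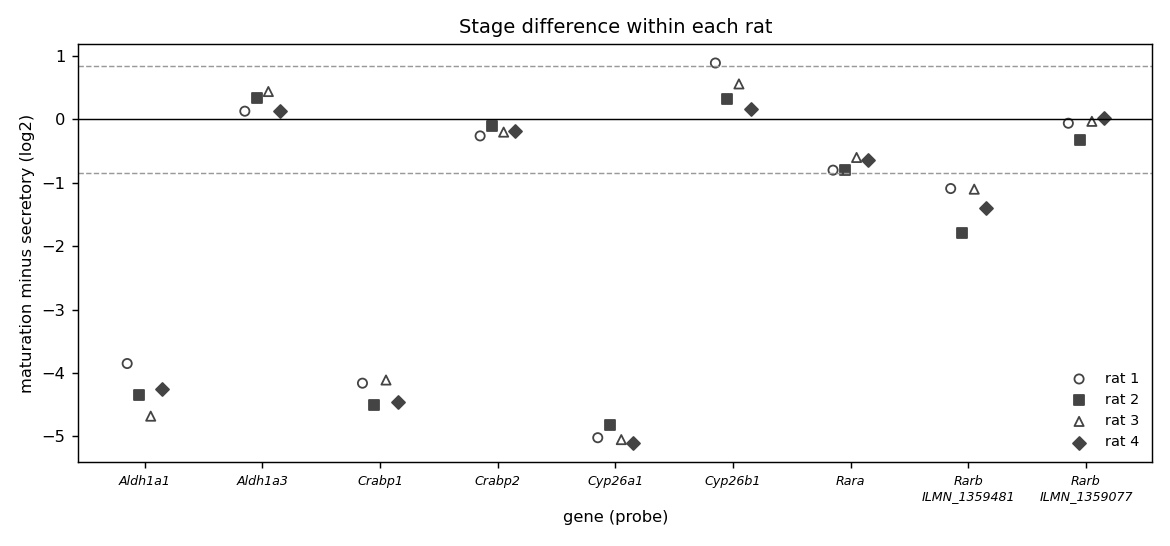
Maturation-stage minus secretory-stage normalized signal (log2) within each of the 4 rats for the 9 probes detected on at least 1 array, with dashed lines at a fold of 1.8. The 4 rats of Aldh1a1, Crabp1 and Cyp26a1 lie between -5.11 and -3.85, and the probes of Rarb lie apart from each other.

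Rara, the most widely expressed of the retinoic acid receptors, had normalized signals of 8.27, 8.11, 8.13 and 8.10 in the secretory stage and of 7.47, 7.32, 7.53 and 7.46 in the maturation stage. The stages did not overlap. Its log2 fold change was -0.71 (SE 0.0675), or 1.64-fold, short of the threshold, and the next of the probes in size, past it, was that of Rarb at 2.53-fold. It was -0.38 with median scaling, and the deposited signals, not normalized, were 284 to 330 in the maturation stage and 300 to 332 in the secretory stage.

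The 2 probes of Rarb, a receptor gene that retinoic acid itself induces in many cells, gave different pictures. ILMN_1359481 had normalized signals of 9.23, 9.29, 9.25 and 9.22 in the secretory stage and of 8.15, 7.50, 8.15 and 7.83 in the maturation stage. Its stages were apart in every rat, with differences from -1.79 to -1.09 and a log2 fold change of -1.34 (SE 0.133).

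ILMN_1359077 had normalized signals of 11.94, 12.15, 12.17 and 12.13 in the secretory stage and 11.88, 11.82, 12.14 and 12.15 in the maturation stage. These values overlapped. The log2 fold change was -0.10 (SE 0.0940), and it was 0.10 with median scaling.

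On the deposited signals, the maturation-stage value of ILMN_1359481 was 0.512 to 0.838 of the secretory-stage one in the same rat. That of ILMN_1359077 was 1.06 to 1.37 times it, close to the 1.11 to 1.36 of the summed signals, and after normalization the difference within a rat ran from -0.33 to 0.02. The array's annotation gives the same predicted transcript for both probes, so it does not say which part of the gene each one reads. The stage difference of Rarb is therefore given per probe.

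**Figure D3:**
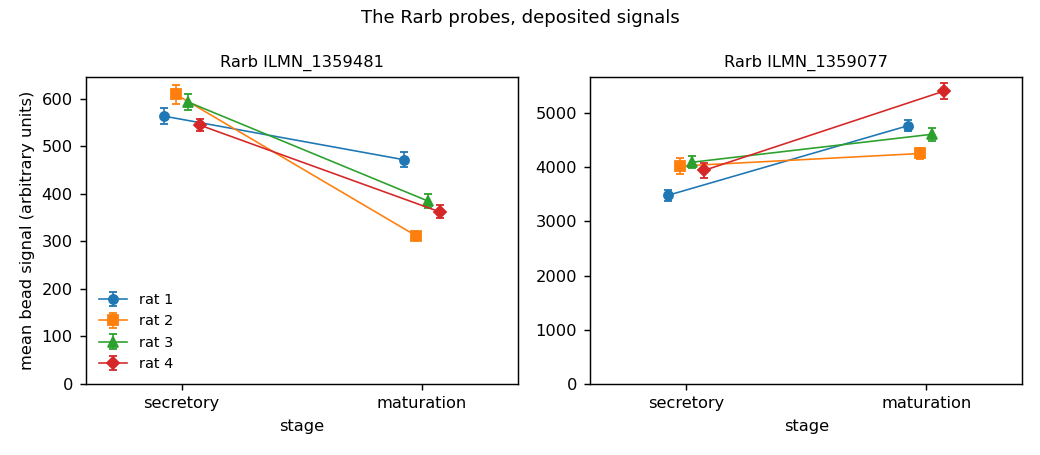
Deposited mean bead signal (arbitrary units, not normalized) of the Rarb probes in the secretory and maturation stage of each rat, joined by a line, with bars for the standard error of the bead signals. ILMN_1359481 is lower in the maturation stage of 4 of 4 rats although the summed signals of those arrays are 1.11 to 1.36 times as high, a scale that the 1.06 to 1.37 of ILMN_1359077 shares, and the axes of the panels differ.

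Over the 80 values of the 10 probes, the standard error of the bead signals was 1.87% to 5.49% of the signal, with a median of 3.24%. The coefficient of variation over the 4 rats exceeded the mean bead error in 19 of 20 sets of a probe and a stage, the exception being Aldh1a2 in the secretory stage, where it was not detected. This sets the spread between animals, on signals that are not normalized, beside the noise of the beads alone. For Crabp1 it was 17.5% in the secretory stage and 15.5% in the maturation stage, and for Cyp26a1 16.6% and 4.46%.

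Response elements of the receptors are direct repeats of a short hexamer, and the promoters of the 9 genes are shown where they hold such a pair. The region from 250 bases before to 50 bases after each gene's start, taken from RefSeq on the GRCr8 assembly, was searched on both strands for any pair of 4 hexamers in the same orientation with 1, 2 or 5 bases between. The first hexamer was AGGTCA in its usual form, the second variant was GGTTCA as known from the Rarb gene, another variant searched was AGTTCA at either place, and the last of the variants was GGGTCA in either place. A pair spaced by 5 bases was found in 2 of the 9 promoters, those of Cyp26a1 and Rarb, and in 128 of 33469 promoters in all (0.382%). The pair in Rarb joins 2 of the hexamers and that in Cyp26a1 repeats 1 of these. As they are the hexamers of the known element of Rarb, the match in Rarb was set by the choice of letters, that in Cyp26a1 is not independent of it, and nothing is read from the distance to that share. The promoters of the pathway and target lists held such a pair in 0 of 32 and 0 of 19. No pair spaced by 1 or 2 bases was found in the 9, against 0.233% and 0.170% of all promoters. The stretches around both pairs follow, read in the direction of the gene, with the hexamers in capitals.

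Cyp26a1, chr1:244883710-244883766: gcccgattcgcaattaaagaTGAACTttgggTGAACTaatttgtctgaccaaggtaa

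Rarb, chr15:11336410-11336438: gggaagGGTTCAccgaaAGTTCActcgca

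In Cyp26a1 the pair lay on the strand opposite to the gene, at -92 to -76 from the start, so its hexamers read as TGAACT here. In Rarb it lay on the gene's own strand, 25 to 41 bases after the start used by the table, which lies within the span of the gene at chr15:10837252-11482037. The 17 bases of each pair occurred in 1 promoter only. A match of letters is a description of the sequence and not a bound site, and no array in the series measured binding.

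On the GRCr8 assembly Aldh1a3, Aldh1a1 and Cyp26a1 lie on chromosome 1, at 129392516 to 129436552, 227426939 to 227579497 and 244883822 to 244887657. Crabp1 and Aldh1a2 lie on chromosome 8, at 64047431 to 64055469 and 80758641 to 80837891. Crabp2, Cyp26b1 and Rara lie on chromosomes 2, 4 and 10.

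The probes of other genes whose pattern over the 8 arrays was most like that of Cyp26a1 were found by the root mean square difference of the normalized signals, each centred on its own mean. They were Scn10a, a voltage-gated sodium channel, at 0.234, Bex2 at 0.370 and Aldh1a1 at 0.464. Scn10a had a mean normalized signal of 9.67 ± 0.180 (SD, n = 4) in the secretory stage, was detected on 0 of the maturation-stage arrays and was at least 26.3-fold lower there. Bex2 had 10.87 ± 0.307 and 6.14 ± 0.249.

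For Cyp26b1 they were Frk, a tyrosine kinase, at 0.0988, Tbx2, a transcription factor of the T-box family, at 0.107 and Abcg3l3 at 0.112. Frk had means of 7.06 ± 0.384 (SD, n = 4) in the secretory stage and 7.60 ± 0.110 in the maturation stage. The likeness is a description of 8 arrays from 4 animals, in which the rats' own differences are shared.

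The other genes of the pathway were taken from a list of 57, from carriers of retinol to coregulators, of which 47 had a probe, 49 probes in all. On 26 of these the gene was detected on all arrays of a stage and on 20 on no array. With limma's test over all probes, at a Benjamini-Hochberg adjusted p below 0.05 and a fold of at least 1.8, 1 was higher and 0 were lower, against 4.60% higher and 3.15% lower over all probes. The median log2 fold change of the list was 0.03, and that of all probes was -0.01.

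At any fold, 12 of the 49 probes were higher and 3 lower at that adjusted p, against 12.8% and 14.0% of all probes. Of all probes past both thresholds, 59.3% were higher in the maturation stage with quantile normalization and 77.6% with median scaling, under which 9 of the 49 were higher and 0 lower, against 7.15% and 2.06% of all probes. The 1 that passed both thresholds was Cited2, a coregulator that competes for the acetyltransferase CBP. Its normalized signals were 7.58, 7.64, 7.81 and 8.14 in the secretory stage and 9.95, 9.47, 9.46 and 9.87 in the maturation stage. Every maturation-stage value was above every secretory-stage one, with a log2 fold change of 1.89 (SE 0.153, limma adjusted p = 1.37e-05).

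Of the retinol and retinal dehydrogenases, 0 of 12 probes passed both thresholds, and with median scaling Rdh10 and 1 probe of Rdh11 did. Rdh10, which makes the retinal that the Aldh1a enzymes use, came closest. Its normalized signals were 7.48, 7.40, 7.33 and 7.12 in the secretory stage and 7.96, 8.19, 8.12 and 8.27 in the maturation stage. The stages did not overlap, and the log2 fold change was 0.80 (SE 0.0942, limma adjusted p = 1.55e-04), below the threshold of 1.8-fold.

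Carriers of retinol gave 0 of 7. Rbp4, the carrier in blood, and Stra6, its receptor at the cell surface, were detected on no array and have no fold. The 4 genes that store or release retinyl esters gave 0 of 4. Among them Lpl and Lipe, both lipases, had log2 fold changes of 0.76 (SE 0.0873) and 0.64 (SE 0.131), which were 1.06 and 0.87 and past both thresholds with median scaling.

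Of the 6 genes of breakdown other than the Cyp26a1 and Cyp26b1 enzymes, 0 were detected on all arrays of a stage. Cyp26c1, the third of the Cyp26 family, was detected on 1 secretory-stage array and 0 maturation-stage arrays, with normalized signals of 5.10, 4.59, 4.78 and 4.63 in the secretory stage and 4.51 to 4.66 in the maturation stage.

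The Rxr receptors, the partners of Rara and Rarb, did not pass both thresholds, except that Rxrg and 1 probe of Rxrb did with median scaling, at 0.99 and 0.91. Rxra was at 6.09, 5.53, 5.93 and 5.81 in the secretory stage and 5.85, 5.43, 5.85 and 5.54 in the maturation stage, with overlap, and its log2 fold change was -0.17 (SE 0.137, limma adjusted p = 0.454), or 0.03 with median scaling. Rxrg was at 6.19, 6.54, 6.19 and 6.09 and at 6.92, 6.91, 6.95 and 7.05, without overlap, with 0.71 (SE 0.0950, limma adjusted p = 3.65e-04). Of the Rxrb probes, ILMN_1376944 gave 0.02 (SE 0.199) and ILMN_1375706 gave 0.56 (SE 0.180, limma adjusted p = 0.0465), and the difference between these probes was not tested. The adjusted p of ILMN_1375706 ran from 0.00126, without the maturation-stage arrays of rats 1 and 4 and with a log2 fold change of 0.89, to 0.134 over the alternatives and was above 0.05 without 7 of the 8 arrays in turn, with an offset of 50 and with the methods' test. No probe was matched to Rarg, to Dhrs3 or to Lrat.

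The 3 genes that were lower at an adjusted p below 0.05 by less than 1.8-fold, named after their values were seen, were the coregulators Ncoa1 and Ncor1, with log2 fold changes of -0.34 and -0.30, and Adh4, with -0.32. With median scaling these were 0.02, 0.05 and -0.20. Rbp2, an intestinal carrier of retinol, and Rdh12, a retinal reductase, were singled out in the same way because each was detected on 4 maturation-stage and 0 secretory-stage arrays. As a lower bound against the dimmest detected probe, Rbp2 was at least 1.30-fold higher. That of Rdh12 was 1.03-fold, and under 1 with the floor at the 5th percentile of detected probes. That choice fixed the direction, so these values are a description.

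**Figure D4:**
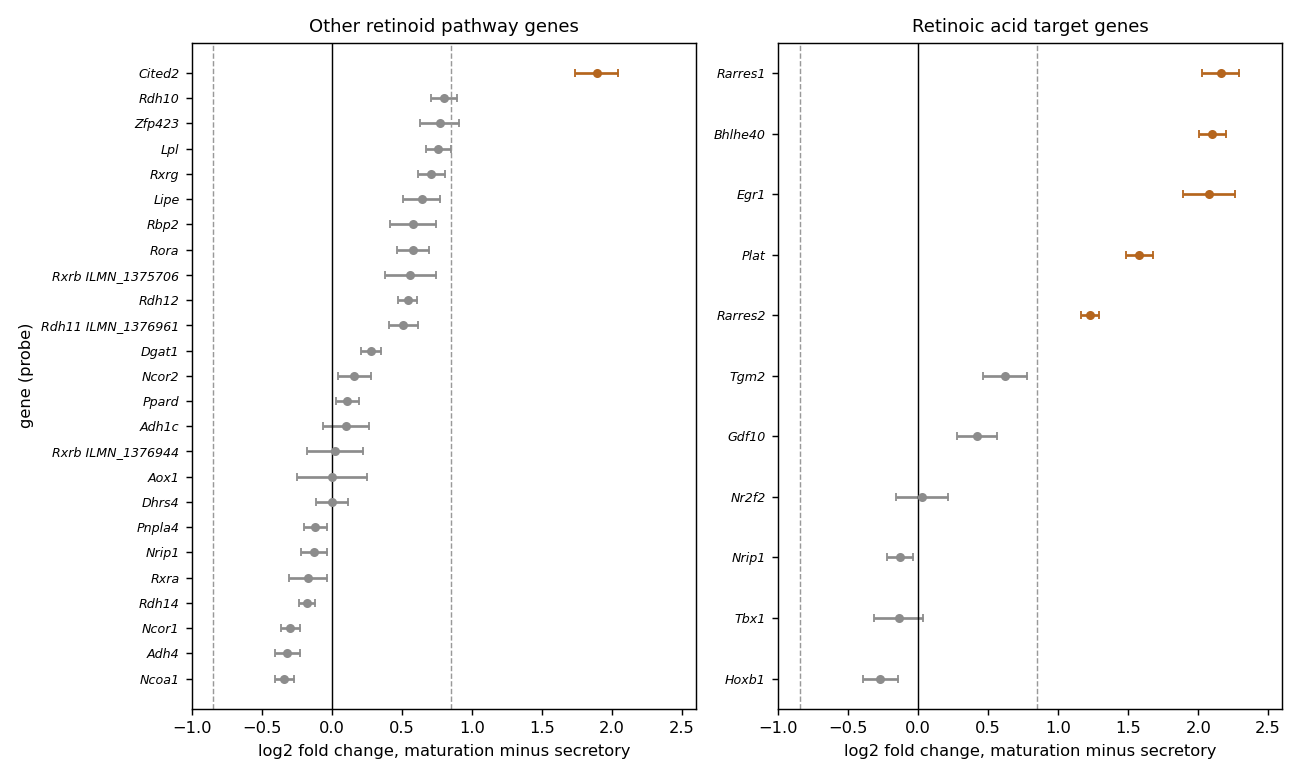
Log2 fold change, maturation minus secretory stage, with its standard error from limma, for the probes of other pathway genes (left) and of target genes (right) that were detected on all 4 arrays of a stage and are reported here. Dashed lines mark a fold of 1.8 and brown points passed both thresholds, which on the left only Cited2 did, at 1.89, and on the right Rarres1, Bhlhe40, Egr1, Plat and Rarres2.

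Genes known to respond to retinoic acid were taken from a list of 40 textbook targets, of which 34 had a probe, 36 probes in all. On 13 the gene was detected on all arrays of a stage. Cyp26a1 and Rarb, known targets that were lower here at -5.00 and, on 1 probe, -1.34, were kept out of this list as they are described above. Of the 36 probes, 5 rose in the maturation stage and 0 fell, against 4.60% and 3.15% of all probes, and the median of the list was -0.00. With median scaling 7 were higher, against 7.15% of all probes. Stra6 and Nrip1 are among the genes that stand in this list and in that of the pathway.

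Rarres1, named for its response to retinoids, had normalized signals of 8.09, 8.12, 8.16 and 8.57 in the secretory stage and 10.16, 10.44, 10.64 and 10.33 in the maturation stage. The log2 fold change was 2.16 (SE 0.131, limma adjusted p = 2.16e-06). Rarres2, which encodes the chemoattractant chemerin, was at 10.94, 11.09, 11.18 and 11.16 and at 12.32, 12.31, 12.31 and 12.33. It rose by 1.23 (SE 0.0647, limma adjusted p = 9.03e-07), with maturation-stage values that hardly differed between rats.

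Bhlhe40, a transcriptional repressor of the circadian clock, lay between 7.71 and 7.92 in the secretory stage and between 9.67 and 10.08 in the maturation stage, and rose by 2.10 (SE 0.0964, limma adjusted p = 3.88e-07). Egr1, an immediate early transcription factor, lay between 6.48 and 7.29 and between 8.76 and 9.22, and rose by 2.08 (SE 0.186, limma adjusted p = 2.65e-05). Plat, the tissue plasminogen activator, rose by 1.58 (SE 0.0981, limma adjusted p = 2.45e-06). For each of the 5 the stages did not overlap. These genes are known to answer other signals as well as retinoic acid.

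Of the homeobox genes among the targets, the probes of Hoxa2, Hoxb2, Hoxb3 and Hoxb4 were detected on no array. That of Hoxb1 was detected on all 8, with a log2 fold change of -0.27 (SE 0.127, limma adjusted p = 0.169). The probe of Hoxb5 was detected on 2 maturation-stage and 0 secretory-stage arrays, and its lower bound was 1.01-fold higher in the maturation stage.

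Markers of some other cell types differed between the stages. Over all probes, 4.60% were called higher and 3.15% lower at both thresholds. Of 14 probes of macrophage and leukocyte markers, 10 were higher in the maturation stage and 0 lower, with a list mean of 8.52 to 8.86 against 7.40 to 7.63. Their log2 fold changes ran from -0.08 to 2.19, the highest being that of Cd68, with the median between the 0.97 of Cd53 and the 1.02 of C1qa. Fibroblast and dental mesenchyme markers were higher on 2 of 10 probes and lower on 0, with a mean of 11.02 to 11.28 against 10.65 to 10.79.

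Of 9 odontoblast and osteoblast probes, 2 were higher and 1 lower, and the list means overlapped at 9.73 to 9.93 and 9.28 to 10.05. The lower one was Dspp, the dentine matrix gene, detected on 4 secretory-stage and 0 maturation-stage arrays. It was at least 34.0-fold lower in the maturation stage. The higher ones were Spp1, with a log2 fold change of 3.62, and Ibsp, with 1.95. Of 8 nerve and glia probes, 2 were higher and 1 lower, with means of 6.35 to 6.53 against 5.71 to 5.88. The higher ones were Snap25, detected on 0 secretory-stage arrays and at least 15.7-fold higher, and S100b, with a log2 fold change of 1.20. Ngfr was lower, at -1.53, and the median of the list was 0.52. The list means include the large rise of Snap25. Endothelial markers had 1 of 6 higher, skeletal muscle markers 1 of 7 lower and erythroid markers 0 of 6 called. From lists this short, set beside the shares of all probes given above, nothing is read from these counts. Of 7 general epithelial probes, Krt15 was called higher, but it was detected on 0 secretory-stage arrays and its lower bound was 1.35-fold. The keratin gene Krt17 and Cdh1, which encodes E-cadherin, were lower, with log2 fold changes of -0.99 and -1.17. The list means were 10.62 to 10.64 against 10.45 to 10.75. Of the defining markers, Sp7, Cdh5, Myh4 and Myog were detected on no array. The part of these cells in the stage differences of the retinoic acid genes was not tested.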

How the data were processed

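The samples were 8 enamel organs of 4 rats, 1 secretory-stage and 1 maturation-stage organ a rat, with stage and rat taken from the titles. Per the labels, biotin-labelled cRNA of each went to an array of the RatRef-12 v1 BeadChip. What the authors deposited for a probe is the average intensity of its beads on an array, without background correction or normalization. Beside it the deposited table gives a detection p-value, how many beads were read and their standard error. The bead-summary software and the genome build are not given in the sources used here.

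limma 3.58.1 in R 4.3.3 did the rest. Its neqc function estimated the background from negative controls that it infers out of the detection p-values, then applied an offset of 16, quantile normalization and the log2 transformation. One unpaired lmFit and eBayes model covered all 22523 probes, as the study's methods name a test without saying that it was paired, with Benjamini-Hochberg adjustment over all of them. Calls needed both an adjusted p below 0.05 and a change of 1.8-fold or more. The fit was tested on simulated data. Where a probe was undetected on all 4 arrays of a stage (detection p not below 0.05), its fold is a bound against the dimmest detected probe.

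List genes were found by the current symbol of their gene ID, for which 17430 probes matched a RefSeq table of GRCr8, or else by the symbol on the array. Since each rat gave both stages, the numbers pair the samples. A rat's arrays deviated together from their stage means, with correlations of 0.195, 0.129, 0.219 and 0.234 over 11233 probes detected on at least 4 arrays, and with mean correlations of -0.0833 to -0.0426 to the arrays of other rats. The genes described, the lists and the tests were chosen with earlier results of these data known. Named are the 9 retinoic acid genes, each called probe of the pathway and target lists that was detected on all arrays of a stage, a set of receptors, carriers and dehydrogenases whatever their values, and the 3 likest probes to the genes with the largest fall and rise. The alternatives tried were another offset (50), normexp without the negative controls, uncorrected background, median scaling or cyclic loess as normalization, leaving out dim probes, the methods' t-test, a block for the rat, and dropping each array in turn. Tables and figures were made with Python 3.11.15. The sequences of the array's probes were not used here. A few genes of the lists enter the counts and medians but are not reported here by name or value.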

Additional observations from a re-analysis of the deposited data

Results flagged for a closer look

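In 6 of 63 sets of 4 arrays, leaving out probes not detected in the stage, the highest or the lowest array stood apart from the rest by Dixon's criterion, where chance alone gives about 1 in 20, or 3.15. In the secretory stage Rarres1 was at 8.57 in rat 4 and at 8.09 to 8.16 in the others. In the maturation stage Egr1 was at 9.22 in rat 2 against 8.76 to 8.81. Of the probes of Rxrb, ILMN_1376944 was at 6.23 in the maturation stage of rat 2 against 5.59 to 5.64, and ILMN_1375706 was at 8.74 in the secretory stage of rat 4 against 9.03 to 9.06. The mean of the fibroblast and dental mesenchyme markers was 11.28 in the maturation stage of rat 1 and 11.02 to 11.06 in the others. This rests on Msx1, at 6.87 in that array and at 4.55 to 4.78 in the others. In the secretory stage Msx1 was also highest in rat 1, at 6.88 against 4.51 to 4.67. Without Msx1 the maturation-stage mean was 11.77 in rat 1 and 11.71 to 11.78 in the others. The mean of the nerve and glia markers was 6.35 in the maturation stage of rat 4 and 6.53 in the others.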

How the results depend on the processing

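The 4 probes of Aldh1a1, Crabp1, Cyp26a1 and Rarb (ILMN_1359481) that were lower by at least 1.8-fold without overlap were the same 4 under each of the 15 alternatives first run on them, and 0 were higher. The 5 called targets and Cited2 were called under every alternative run on their lists. The number of pathway probes called higher was 1 in the comparison reported, 2 with cyclic loess and 9 with median scaling. It lay between 1 and 2 with an array left out, the added probe being Rdh10 without maturation-stage rat 1, and Zfp423 without maturation-stage rat 4 or secretory-stage rat 2. The 9 under median scaling were Cited2, Rdh10, Lpl, Lipe, Rdh11, Rxrb (ILMN_1375706), Rxrg, Rora and Zfp423. Without the maturation-stage arrays of rats 1 and 4, an alternative chosen after the data were seen, 2 pathway probes were higher (Cited2 and Rxrb ILMN_1375706), and the retinoic acid genes had 4 lower and the targets 5 higher. The cause was not tested. With the rat as a replicate block, the pathway list kept 1 higher and 0 lower and the targets 5 higher and 0 lower, so the pairing changed no call. Of 386 values of single genes under an alternative, 21 moved by more than the spread, all of them values of the retinoic acid genes. For the tested genes only a change of call was counted, and 5 values passed the thresholds newly and 0 lost them. Their shifts in size, such as that of Rxrg from 0.71 to 0.33 without background correction, are not in the 21. With the floor at the 5th percentile of detected probes the bound of Rbp2 was 1.20-fold, and that of Rdh12 had no value as it fell under 1. Signal near the background limits the folds of Cyp26a1 and Aldh1a1 in the maturation stage.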
